A study of Mus musculus with 10 samples.

Results

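The 6 genes described here encode the enzymes that switch pyruvate dehydrogenase off and on: the kinases Pdk1, Pdk2, Pdk3 and Pdk4 and the catalytic phosphatase subunits Pdp1 and Pdp2. They were taken by symbol from a table of 24475 mouse genes, and all 6 are among the 13450 genes whose mean level reached 0.5 RPKM (reads per kilobase of transcript and per megaread mapped). The family was chosen by the measured difference in Pdk4 between islets with and without glucagon receptor blockade. Differences of these 6 genes between the groups are therefore given as a description, with no test.

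Pancreatic islets are the clusters of hormone-secreting cells of the pancreas. Islets from C57BL/6 mice were sequenced in 10 libraries. In the labels, numbers 1 to 5 are libraries from mice given REGN1193 (R1193), a blocking antibody against the glucagon receptor (GCGR), and numbers 6 to 10 are libraries from mice given an isotype control antibody. The labels name no dose, duration, age, sex or batch, and whether the libraries are from separate animals is left unsaid, so the p-values below measure only the spread between these libraries. The study concerns the growth in alpha cell number that follows receptor inhibition.

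Pyruvate dehydrogenase is the mitochondrial complex that turns pyruvate into acetyl-CoA and so commits carbon from glucose to the citric acid cycle. The kinases phosphorylate its E1 alpha subunit and stop it, and the phosphatases remove the phosphate and restore activity. Pdk4 is the member best known for induction by fasting and by fatty acid use, Pdk1 is a target of hypoxia-inducible factor, and Pdk2 is the most widely expressed kinase. In islets, the entry of pyruvate into mitochondria is part of how glucose controls insulin release.

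Depth, estimated from the step that 1 read makes in the low RPKM values, was 14.5 to 18.1 megareads per library with the blocking antibody and 12.3 to 14.8 megareads with the isotype control. At that depth the thinnest member value, for Pdp1, rested on about 87 reads when its shortest linked transcript is assumed, and the lowest value of Pdk4 on about 240. Islet identity was plain in every library: 10 beta cell markers summed to between 198855 and 472087 RPKM. Acinar markers, from the digestive part of the pancreas, were also present and summed to between 2574 and 14981 RPKM.

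Pdk4 separated the groups. Its level in antibody libraries 1 to 5 was 27.6, 22.4, 22.1, 23.8 and 29.9 RPKM. In isotype libraries 6 to 10 it was 5.46, 9.01, 8.94, 8.12 and 7.27 RPKM. The groups did not overlap, with a wide gap between 9.01 and 22.1 RPKM. The means were 25.2 ± 3.45 and 7.76 ± 1.47 RPKM (SD, n = 5 each), and the log2 fold change on the log2(RPKM + 0.5) scale was 1.65 (SE 0.15), or 3.13-fold. That placed Pdk4 at rank 11 of the 13450 tested genes by signed log2 fold change.

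**Figure D1:**
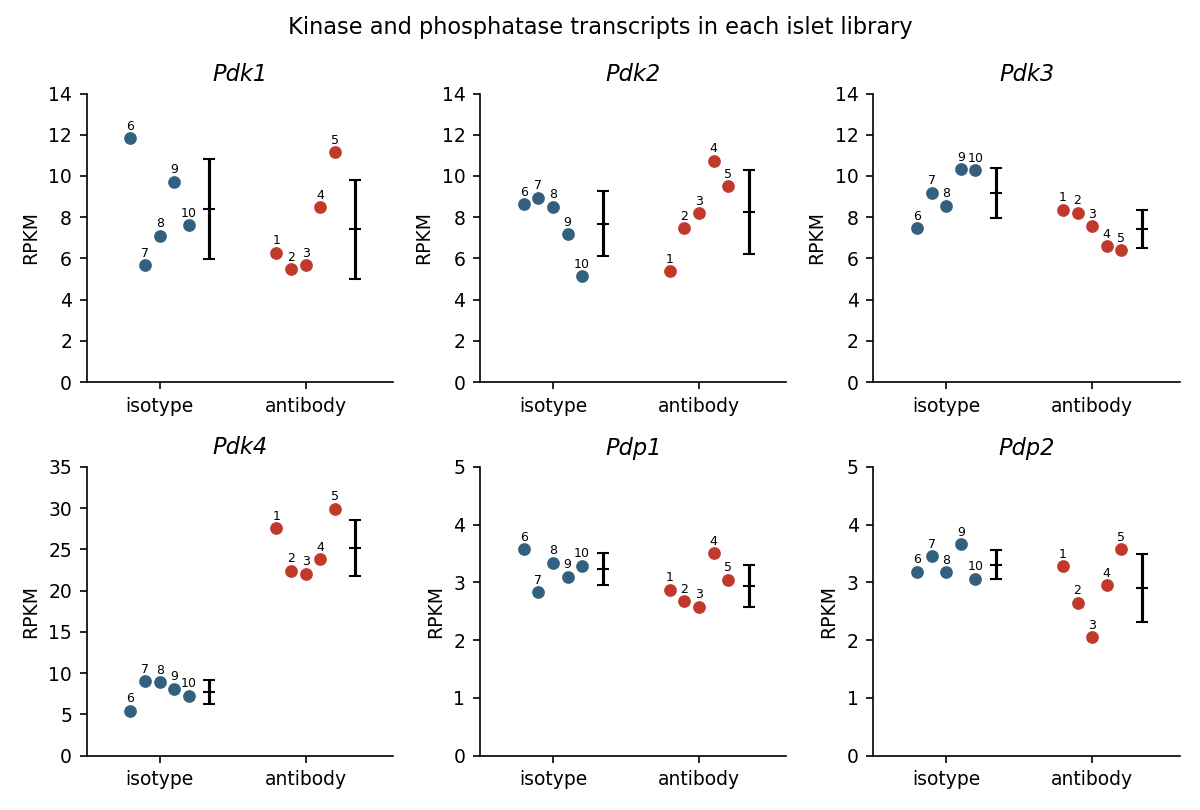
Level of each kinase and phosphatase gene in RPKM (vertical axis, from 0, with its own range in each row or panel) by group. Points are single libraries with their label numbers, and black bars are the group mean ± SD (n = 5). The Pdk4 points run from 5.46 to 9.01 RPKM in isotype libraries and from 22.1 to 29.9 RPKM in antibody libraries, while the groups overlap in the other 5 genes.

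Pdk4 (Entrez 27273) lies on chromosome 6 from 5483351 to 5496278 on the minus strand of GRCm38.p6 and has 11 exons. Pdk2 (Entrez 18604) lies on chromosome 11 from 95026258 to 95041371, and Pdk3 (Entrez 236900) on chromosome X from 93764616 to 93832150, both on the minus strand. No exon of the 6 members overlapped an exon of another gene in GENCODE M21. The 250 bases upstream of the RefSeq start are printed 5′ to 3′ for 3 kinases: Pdk4 because its level separated the groups, and Pdk2 and Pdk3 because they tended to deviate in opposite directions within the groups. That relation was chosen after its values were seen and did not pass adjustment over the member pairs. The windows are chr6:5496279-5496528, chr11:95041372-95041621 and chrX:93832151-93832400, all minus strand (Pdk2 has a second RefSeq start, not printed), and capitals mark matches to the motifs named after them.
Pdk4: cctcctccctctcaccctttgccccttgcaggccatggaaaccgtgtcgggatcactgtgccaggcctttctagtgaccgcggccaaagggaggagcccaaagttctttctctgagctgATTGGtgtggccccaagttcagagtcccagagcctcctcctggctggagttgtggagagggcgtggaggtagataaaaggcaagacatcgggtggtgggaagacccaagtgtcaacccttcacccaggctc
Pdk2: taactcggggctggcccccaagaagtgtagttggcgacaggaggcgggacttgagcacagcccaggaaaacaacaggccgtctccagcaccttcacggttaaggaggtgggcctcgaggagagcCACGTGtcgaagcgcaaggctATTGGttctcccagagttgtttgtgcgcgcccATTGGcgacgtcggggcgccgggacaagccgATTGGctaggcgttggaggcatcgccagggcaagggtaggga
Pdk3: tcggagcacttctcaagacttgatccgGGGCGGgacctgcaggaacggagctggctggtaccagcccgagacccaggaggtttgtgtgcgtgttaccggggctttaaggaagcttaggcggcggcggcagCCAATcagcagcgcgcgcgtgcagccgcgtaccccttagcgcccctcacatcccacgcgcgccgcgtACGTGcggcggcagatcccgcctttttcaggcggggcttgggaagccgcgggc
Both strands were searched for the FoxO motif TGTTTAC, the nuclear receptor half-site AGGTCA, the glucocorticoid half-site TGTTCT, the hypoxia response core ACGTG, the E-box CACGTG (which contains that core), the CCAAT box and the GC box GGGCGG. The Pdk4 window held 1 match, a CCAAT box on the opposite strand at -131 to -127 from the start. Pdk2 held 3 CCAAT boxes and 1 E-box, and Pdk3 held 1 CCAAT box, 1 GC box and 1 hypoxia response core. Of 32851 RefSeq windows of this length, 33.8% held a CCAAT box, 32.7% a GC box, 16.6% the hypoxia response core, 6.02% the E-box and 3.17% the FoxO motif. The half-sites stood in 14.02% (nuclear receptor) and 16.1% (glucocorticoid). These matches are descriptions of letters in a window and do not show binding.

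The other 3 kinases did not follow Pdk4. Pdk1 (Entrez 228026, chromosome 2 from 71873215 to 71903858, not Pdpk1, a different kinase that shares the name PDK1) was at 6.27, 5.48, 5.67, 8.48 and 11.2 RPKM in antibody libraries 1 to 5. In isotype libraries 6 to 10 it was at 11.8, 5.68, 7.11, 9.73 and 7.62 RPKM. The groups overlapped almost fully, with antibody library 5 and isotype library 6 highest in their groups. The means were 7.41 ± 2.41 and 8.39 ± 2.41 RPKM (SD, n = 5 each), a log2 fold change of -0.18 (SE 0.22).

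Pdk2 stood at 5.38, 7.47, 8.20, 10.7 and 9.49 RPKM in the antibody libraries in label order and at 8.62, 8.94, 8.52, 7.18 and 5.15 RPKM in the isotype libraries. The lowest library of each group was near 5 RPKM and the ranges overlapped. Its log2 fold change was 0.09 (SE 0.19), and the sign turned negative in 4 of 19 alternative settings: with array weights (-0.04), without antibody library 4 (-0.01), without isotype library 10 (-0.04), and without antibody library 5 and isotype library 10 together (-0.09). No direction can be given for Pdk2.

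Pdk3, an X-linked kinase, was at 8.36, 8.21, 7.55, 6.59 and 6.39 RPKM with the blocking antibody. With the isotype antibody it was at 7.48, 9.19, 8.56, 10.3 and 10.3 RPKM. The antibody libraries tended lower, with 2 of them below all isotype libraries, but the ranges overlapped between 7.48 and 8.36 RPKM. The means were 7.42 ± 0.906 and 9.17 ± 1.21 RPKM (SD, n = 5 each), a log2 fold change of -0.29 (SE 0.12) that stayed negative in all 19 alternative settings, from -0.35 to -0.20.

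The phosphatases were the least abundant members in every library. Pdp1, the calcium-stimulated phosphatase (Entrez 381511, chromosome 4 from 11958183 to 11966450), was at 2.87, 2.67, 2.58, 3.51 and 3.05 RPKM in the antibody libraries and at 3.58, 2.84, 3.35, 3.10 and 3.29 RPKM in the isotype libraries. Pdp2 (Entrez 382051, chromosome 8 from 104591472 to 104599026) was at 3.28, 2.65, 2.05, 2.95 and 3.57 RPKM and at 3.19, 3.46, 3.18, 3.66 and 3.07 RPKM. In both genes the groups overlapped, and antibody library 3 was the lowest of all 10. The log2 fold changes were -0.12 (SE 0.11) for Pdp1 and -0.18 (SE 0.14) for Pdp2. Pdpr, the regulatory subunit that restrains the phosphatase, was at 3.47 ± 0.713 and 3.95 ± 0.436 RPKM (SD, n = 5 each), which is -0.18 on the log2 scale (SE 0.14; limma adjusted p = 0.860). Pdpr shares 169 exonic bases with an antisense gene, and the library kit does not mark the strand.

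By limma at an adjusted p under 0.05, 1 of the 6 members was called, Pdk4, where 0.409% of all tested genes were called, 0.394% as higher and 0.0149% as lower with the antibody. Pdk4 was also the 1 member whose groups did not overlap, where 1.99% of all tested genes did not overlap in either direction and 1.14% were higher in every antibody library. This contrast picked the family, so nothing is read from these counts. The 6 members had a median log2 difference of -0.15, beside -0.07 over all tested genes; with median centring these became -0.07 and 0.01.

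In RPKM, which is scaled for length, the levels of the genes can be ordered. In isotype islets the 4 kinases formed 1 tier: Pdk3 at 9.17, Pdk1 at 8.39, Pdk4 at 7.76 and Pdk2 at 7.68 RPKM on average. Neighbours in this order did not differ beyond their spread, since Pdk3 exceeded Pdk1 in 4 of 5 libraries, Pdk1 exceeded Pdk4 in 3 of 5 and Pdk4 exceeded Pdk2 in 4 of 5. The phosphatases formed a lower tier, with Pdp2 at 3.31 and Pdp1 at 3.23 RPKM, and Pdp2 was the higher of the pair in 2 of 5. In all 10 libraries of both groups the lowest kinase exceeded the highest phosphatase, by 1.53 to 2.20 times. In antibody islets the order became Pdk4 at 25.2, Pdk2 at 8.26, Pdk3 at 7.42 and Pdk1 at 7.41 RPKM, with Pdk4 on top in 5 of 5 libraries. The neighbours below it, Pdk2 with Pdk3 and Pdk3 with Pdk1, each kept their order in 3 of 5.

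Pdk4 took a larger share of the kinase transcripts under the antibody. Of the summed RPKM of the 4 kinases, Pdk4 made up 58.0%, 51.5%, 50.7%, 47.97% and 52.5% in antibody libraries 1 to 5. In isotype libraries 6 to 10 it made up 16.4%, 27.5%, 27.0%, 23.0% and 24.0%. These ranges were far apart, while Pdk1, Pdk2 and Pdk3 together held the rest, as shares of a whole must. The 4 kinases summed to 48.3 ± 5.54 RPKM under REGN1193 and to 33.0 ± 1.79 RPKM in controls (SD, n = 5 each). Without Pdk4 the sum was 23.1 ± 3.12 and 25.2 ± 2.19 RPKM (SD, n = 5 each), and the groups overlapped.

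**Figure D2:**
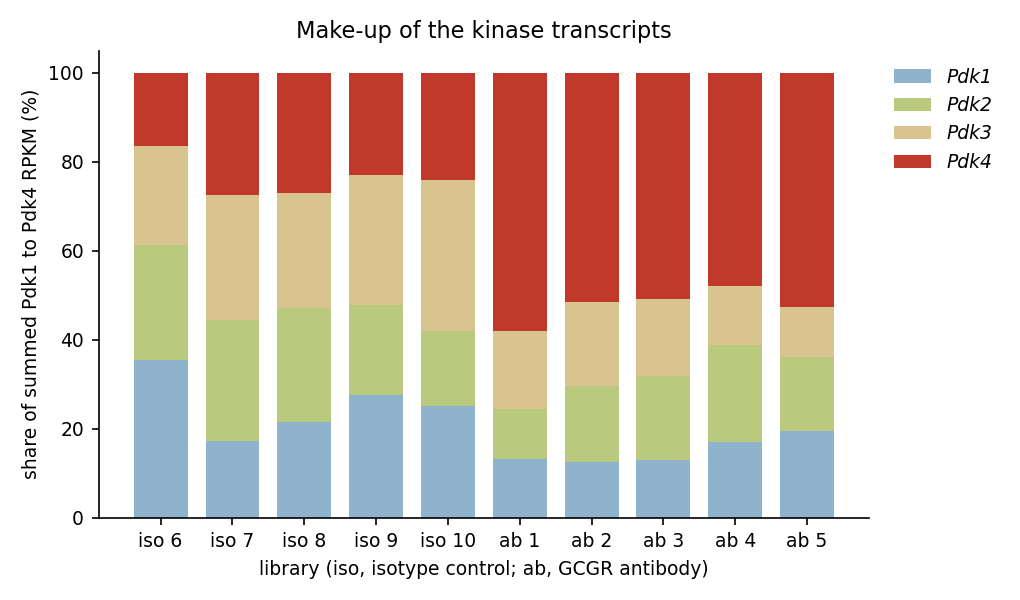
Share of each kinase gene in the summed RPKM of Pdk1 to Pdk4 (vertical axis, %) in each library (bars, isotype libraries on the left and antibody libraries on the right). The red Pdk4 part is 16.4% to 27.5% in isotype libraries and 47.97% to 58.0% in antibody libraries.

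The balance of kinase to phosphatase transcripts moved with Pdk4. The 4 kinases summed to 8.32 ± 0.707 times the summed phosphatases in antibody libraries and to 5.04 ± 0.194 times in isotype libraries (SD, n = 5 each), with ranges of 7.68 to 9.40 and 4.77 to 5.23. With Pdk4 left out, the same ratio was 3.99 ± 0.490 and 3.85 ± 0.213 (SD, n = 5 each), and the ranges overlapped. Against Pdha1, the gene of the E1 alpha subunit that the kinases phosphorylate, Pdk4 stood at 0.695 to 0.901 RPKM per RPKM with the antibody and at 0.143 to 0.273 with the isotype control. These are ratios of transcripts, and enzyme activity was not measured.

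No gene of the substrate complex passed the threshold. Of the 5 genes Pdha1, Pdhb, Dlat, Dld and Pdhx, 0 passed limma's threshold, near the 0.409% of all tested genes that did. At an unadjusted p under 0.05 the count was also 0, where the share of all tested genes was 7.02%. The median log2 difference of the 5 genes was -0.06, or 0.02 with median centring. Pdha1 was at 33.2 ± 1.88 and 38.0 ± 4.37 RPKM (SD, n = 5 each; log2 difference -0.19, SE 0.10; limma adjusted p = 0.766). Pdhx, the E3-binding protein, had -0.10 (SE 0.13) and Dld, the dihydrolipoamide dehydrogenase, -0.06 (SE 0.12). Bckdk, the kinase of the branched-chain ketoacid dehydrogenase and the nearest relative of the Pdk family, was at 21.2 ± 1.73 and 23.2 ± 3.05 RPKM (SD, n = 5 each; -0.12, SE 0.11, limma adjusted p = 0.870). Its opposing phosphatase gene Ppm1k had -0.09 (SE 0.14, limma adjusted p = 0.933), and Dbt, the E2 subunit of that complex, -0.38 (SE 0.17, limma adjusted p = 0.683).

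**Figure D3:**
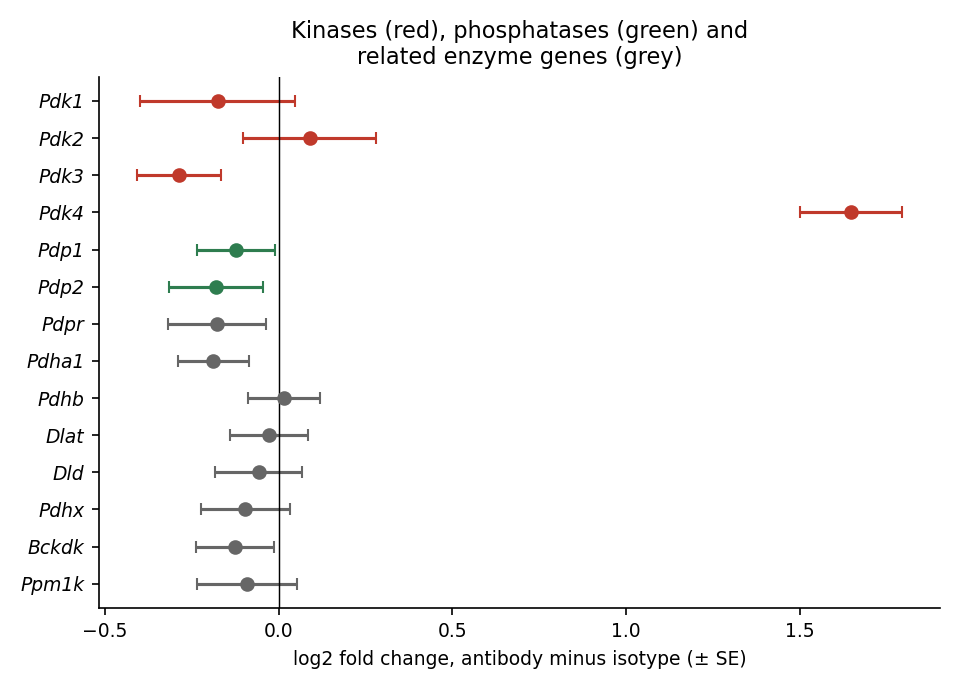
Log2 fold change, antibody minus isotype, of log2(RPKM + 0.5) (horizontal axis) with its standard error (bars, n = 5 each) for the kinases in red, the phosphatases in green and Pdpr, the 5 pyruvate dehydrogenase genes, Bckdk and Ppm1k in grey. Pdk4 stands at 1.65, and the other 13 genes lie between -0.29 and 0.09.

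Lists of genes linked to Pdk4 or to pyruvate held no gene past the threshold. Over 9 lists, 85 of 94 genes were tested. In limma 0 passed, where 0.409% of all tested genes did, so the count is near that share. An unadjusted p under 0.05 was met by 5 of the 85, a rule that 7.02% of all tested genes met. The same count of 0 held in all 19 alternative settings. Their median log2 difference was -0.11, beside -0.07 over all tested genes. Of the 85, 71 were negative, beside 8938 of all 13450 tested genes. Small signs moved with the scaling. With median centring 57 of the 85 were negative, beside 6295 of all 13450 tested genes. The median was then -0.04, beside 0.01 over all tested genes. The counts of negative and of called genes in single lists below are to be read beside these background counts and shares.

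Fatty acid oxidation genes and targets of the PPAR receptors, nuclear receptors that bind fatty acids, had a median of -0.15 on the log2 scale, with 18 of 20 tested genes negative, or 13 of 20 with median centring. Etfdh, an electron transfer enzyme of fatty acid oxidation, had -0.20 (SE 0.12) and Fabp3, a fatty acid-binding protein, -0.23 (SE 0.15). Among targets of FoxO factors, which insulin signalling keeps out of the nucleus, 5 of 8 were negative with a median of -0.06, and 4 of 8 with a median of 0.02 after median centring. Klf15 had -0.38 (SE 0.15), Irs2, an insulin receptor substrate, -0.36 (SE 0.25; -0.12 without isotype library 9) and Fbxo32 -0.26 (SE 0.22).

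Of 10 regulators known for control of Pdk4 transcription, 7 were tested and all 7 had negative log2 fold changes (5 of 7 with median centring), with a median of -0.11 and 0 called by limma (0 at an unadjusted p under 0.05). Foxo1 was at 12.4 ± 1.46 and 14.6 ± 1.33 RPKM (SD, n = 5 each; -0.23, SE 0.11, limma adjusted p = 0.720), Pparg at -0.30 (SE 0.17) and Esrra, an orphan nuclear receptor, at -0.23 (SE 0.24). The sign of Esrra rested on antibody library 5, without which it was 0.01. Ppara, Ppargc1a and Ppargc1b were below the filter on low values. Hypoxia targets, the known company of Pdk1, had a median of -0.14 over 12 tested genes, 9 of them negative. Car9, a carbonic anhydrase, had -0.95 (SE 0.35, limma adjusted p = 0.583), Slc2a1, a glucose carrier, -0.33 (SE 0.19) and Egln1, an oxygen sensor, -0.23 (SE 0.11). Car9 was low, at 0.666 to 1.07 RPKM in antibody libraries and 0.522 to 5.24 RPKM in isotype libraries. Its log2 fold change was -0.64 without isotype library 10 and -1.27 without isotype library 6. Egln1 was the 1 gene of the 12 whose groups did not overlap, where 1.99% of all tested genes did not. It was at 10.7 to 11.6 RPKM in antibody libraries and 11.7 to 16.5 RPKM in isotype libraries (limma adjusted p = 0.720).

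For pyruvate handling, 9 of 11 tested genes were negative (8 with median centring), the median log2 difference was -0.19 and 0 were called. Pcx, pyruvate carboxylase, which feeds pyruvate into the cycle by the route that does not pass the dehydrogenase, was at 25.4 ± 6.47 and 33.9 ± 6.74 RPKM (SD, n = 5 each; -0.43, SE 0.19, limma adjusted p = 0.680). Pkm, pyruvate kinase, had -0.24 (SE 0.13) and Ldhb, a lactate dehydrogenase, -0.21 (SE 0.12). The 16 citric acid cycle genes had a median of -0.10 (-0.02 with median centring) and 0 calls, with the fumarase gene Fh1 at -0.31 (SE 0.29), Idh3a, a subunit of isocitrate dehydrogenase, at -0.21 (SE 0.17) and Sdha, of succinate dehydrogenase, at -0.15 (SE 0.10). Fh1 was at -0.09 without antibody library 5, at -0.16 without isotype library 10 and at 0.05 without both, and Idh3a at -0.09 without isotype library 10.

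Alpha cell genes moved in the same direction as Pdk4. All 10 alpha cell markers had positive log2 fold changes, and 8 were called higher, where 0.394% of all tested genes were. The list was chosen with earlier results of these data known, so this count is a description and not a test. Their mean log2 level was 5.49 to 5.86 under REGN1193 and 3.91 to 4.62 in controls, a difference of 1.39 between the group means. The log2 fold change of Pdk4 was below those of Ttr, transthyretin (2.77), and Gcg, proglucagon (2.39), and above those of the other 8 markers, from 0.61 for Pou3f4 to 1.39 for Wnk3. In bulk islet RNA, more alpha cells and more RNA per cell cannot be told apart.

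Relative to the mean of the alpha cell markers, the groups overlapped in Pdk4. The log2 level of Pdk4 minus that mean was -0.68, -1.34, -1.23, -0.98 and -0.67 in antibody libraries 1 to 5 and -1.59, -1.37, -1.38, -0.91 and -0.96 in isotype libraries 6 to 10. The group means were -0.98 ± 0.31 and -1.24 ± 0.29 (SD, n = 5 each), 0.26 apart, which is less than the spread within either group. Per 1000 RPKM of Gcg, Pdk4 stood at 0.411 ± 0.104 RPKM under REGN1193 and at 0.653 ± 0.139 RPKM in controls (SD, n = 5 each). Gcg had the larger log2 fold change of the pair as deposited (2.39 against 1.65 for Pdk4), and the order turned with quantile normalization (1.41 against 1.72).

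**Figure D4:**
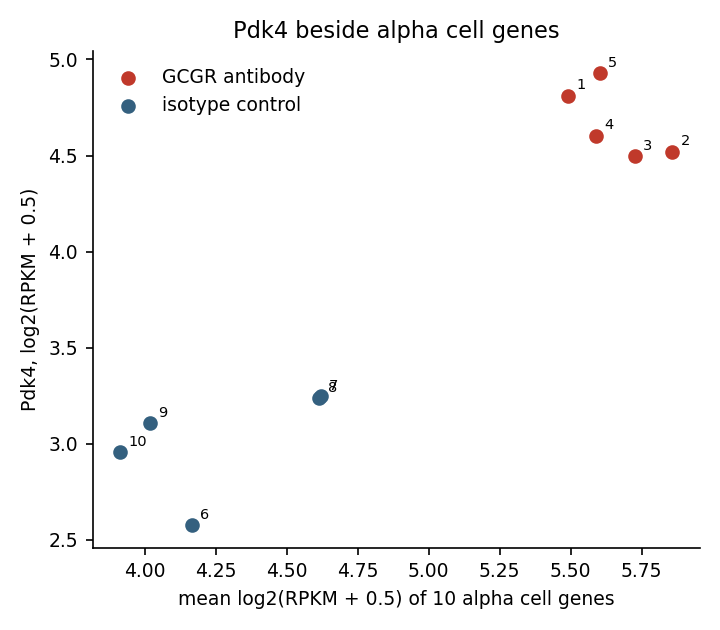
Pdk4 as log2(RPKM + 0.5) (vertical axis) against the mean log2(RPKM + 0.5) of 10 alpha cell markers (horizontal axis), 1 point per library with its label number. Antibody libraries (red) sit at 4.50 to 4.93 and isotype libraries (blue) at 2.58 to 3.25 on the vertical axis, and both axes separate the groups.

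Markers of other cells were set beside Pdk4. The 4 delta cell markers and the 2 pancreatic polypeptide cell markers were all positive in log2 fold change with 0 called, and their sums overlapped between groups: 3701 to 9711 against 2047 to 4969 RPKM for delta, and 4111 to 12900.5 against 3173 to 6339 RPKM for polypeptide cells. Their median log2 fold changes were 0.70 and 0.72. In both lists 4 antibody sums exceeded every isotype sum, and only antibody library 5 fell within the isotype range. The 10 beta cell markers were all negative with 0 called and a median of -0.44. Their sums were 198855 to 356297 RPKM with the antibody and 298355 to 472087 RPKM with the isotype control. The 10 acinar markers were also all negative with 0 called, with a median of -0.49 (3286 to 10177 RPKM with the antibody, 2574 to 14981 with the isotype control). Of all 13450 tested genes, 8938 were negative and 0.409% were called. Endothelial, mesenchymal, macrophage and ductal sums also overlapped, with 0 called in each list. Of 7 adipocyte markers 2 were tested and both were positive with 0 called, the 7 summed to 5.74 to 31.3 RPKM with the antibody and 7.86 to 23.8 RPKM with the isotype control, and most of that sum was Fabp4. Cfd, of the same list and chosen after its values were seen, was at 0.298 to 2.27 RPKM in antibody libraries and 0 to 0.219 RPKM in isotype libraries. Every isotype value lay below the 0.5 RPKM filter, so Cfd passed it only through the antibody libraries. The groups of Cfd did not overlap, where 1.14% of all tested genes were higher in every antibody library, and no test of it is given. Adipoq reached at most 0.165 RPKM in any library. The part of delta, polypeptide and fat cells in the Pdk4 difference was not tested.

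Genes with a pattern like that of Pdk4 were ranked by Pearson's r of log2(RPKM + 0.5) among the 8383 other genes that averaged 5 RPKM or more. Across all 10 libraries, the 5 highest were Slc38a5, an amino acid carrier (r = 0.97), Gcg (0.96), the kinase gene Wnk3 (0.95), the protease inhibitor gene Serpine2 (0.95) and Ifih1, a sensor of double-stranded RNA (0.95). The median over all 8383 was -0.18. All 5 were called higher with the antibody, so the group difference enters these values. After each group's mean was subtracted, a different set led: Scd2, a fatty acid desaturase (0.91), Ap1m1, of a clathrin adaptor (0.87), Ddrgk1 (0.85), Rnf214 (0.85) and Pde8a, a phosphodiesterase (0.85). None of the latter 5 passed in limma (log2 fold changes from -0.06 to 0.15). High values are to be met among so many genes over 10 libraries, and no p is given.

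Within the groups the members varied by different amounts. Pdk1 was the most variable, with a coefficient of variation of 32.6% in antibody and 28.7% in isotype libraries, and Pdp1 the steadiest over both, with 12.6% and 8.62%. Pdk4 had 13.7% and 18.9%. Placed among all tested genes by the residual SD of log2 values, Pdk1 stood at percentile 82.6, Pdk2 at 73.0, Pdk4 at 45.5, Pdp2 at 29.3, Pdk3 at 21.5 and Pdp1 at 7.15.

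Pdk2 and Pdk3 tended to deviate in opposite directions, a relation chosen after its values were seen. With each group's mean subtracted, r was -0.78 and Spearman's rho -0.78 over the 10 libraries, and 8 of 10 libraries deviated to opposite sides. The exact permutation p over 14400 orders within groups, two-sided, was 0.0134 for r and 0.0144 for rho. It was the smallest of 15 member pairs, and adjusted over those pairs by Benjamini-Hochberg the p was 0.187 and 0.183, so the relation did not pass. Without antibody library 1 and isotype library 10, the farthest from the median of Pdk2, r was -0.77, and leaving out any 1 library gave -0.83 to -0.75. The opposition was not particular to this pair. Between Pdk3 and Pdp1 r was -0.62 (rho -0.59), with opposite sides in 9 of 10 libraries. Between Pdk1 and Pdk3 r was -0.61 (rho -0.32), with opposite sides in 8 of 10. The adjusted exact permutation p of r was 0.247 for both. Without antibody library 5 and isotype library 6, r of Pdk1 and Pdk3 was -0.11.

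The largest positive relation was between Pdk1 and Pdp1 (r = 0.71, exact permutation p = 0.0374, adjusted p = 0.187; rho = 0.76, exact permutation p = 0.0244, adjusted p = 0.183). Without antibody library 5 and isotype library 6 its r was 0.73. Pdk4 had its largest relation with Pdp2 (r = 0.58, exact permutation p = 0.0374, adjusted p = 0.187; rho = 0.65, exact permutation p = 0.0655, adjusted p = 0.327), with r = 0.65 without those same libraries. The acinar sum ran opposite to Pdk3 in the antibody group: libraries 1 to 3, with the higher Pdk3, had the lower sums of 3286, 3691 and 3447 RPKM, and libraries 4 and 5 had 6875 and 10177 RPKM. In the isotype group, libraries 6 to 8, with the lower Pdk3, had acinar sums of 9942, 10126 and 14981 RPKM. Isotype libraries 9 and 10, with the higher and similar Pdk3, had acinar sums of 2574 and 9095 RPKM. The part of acinar RNA in these relations was not tested.

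**Figure D5:**
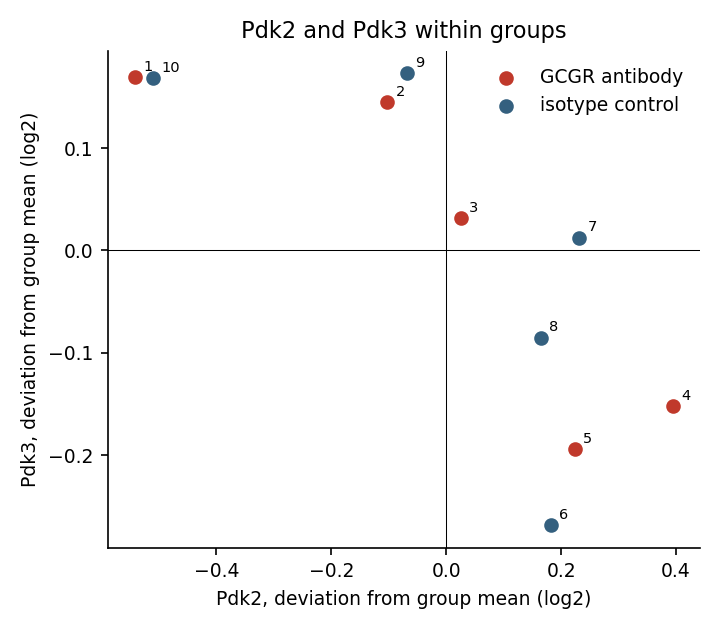
Deviation of Pdk3 (vertical axis) against that of Pdk2 (horizontal axis) from the mean of the library's own group, on the log2(RPKM + 0.5) scale, 1 point per library with its label number. Points run from upper left, with antibody library 1 and isotype library 10, to lower right, and r is -0.78.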

How the data were processed

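The authors deposited 1 table of RPKM values per gene, with an Entrez identifier and a symbol for each. The builds GRCm38 and mm10 and the tools CASAVA 1.8.2 and FastQC come from the submitters' processing notes, with no roles; no aligner, counting program or annotation is named, and each is not given in the sources used here. Per the labels' protocols, the libraries were made from polyA RNA with a Nextera XT kit. RPKM is not a count, so log2(RPKM + 0.5) was fitted with limma 3.58.1 (variance trend; R 4.3.3), antibody against isotype, 5 libraries each, over the 13450 genes averaging 0.5 RPKM or more. p-values were adjusted by Benjamini-Hochberg over all of these. The fit was tested on simulated data. A fold on this scale understates the change of low genes.

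Depth was estimated from 15621 genes with a single transcript length in GENCODE M21; in each library 68.2% to 73.4% of low values were whole reads to within 0.1, too few to recover counts. Correlations among members, Pdk4 relative to alpha cell genes, and plots were made in Python 3.11.15 (scipy 1.17.1, matplotlib 3.10.9). Coordinates and upstream windows are RefSeq's, GRCm38.p6; all 6 members matched the gene table, and 5 of them the table of windows, which lacks Pdp1.

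The members and all gene lists were chosen with earlier results of these data known. Named genes are the members, Pdpr, Gcg, up to 3 genes of each list with the smallest p, and the 5 genes most like Pdk4 by each measure. Other genes given with values of their own were chosen after those values were seen. 1 listed gene that the rule names is not reported here. Alternatives were pseudocounts of 0.1 and 1, no low-value filter or one at 5 RPKM, centring on library medians, quantile normalization, no variance trend, array weights, and leaving out each library, or antibody replicate 5 and isotype replicate 10 together.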

Additional observations from a re-analysis of the deposited data

Results flagged for a closer look

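No value of the 6 members stood apart from its group. In 90 groups of 5 libraries the highest or lowest library was compared with its nearest neighbour, as a share of the group's range, and 7 exceeded Dixon's critical value of 0.71, where chance flags about 1 in 20. Isotype replicate 10 was highest in Dbt (9.08 RPKM, others 4.94 to 6.11) and in Idh3a (27.0 RPKM, others 16.1 to 18.9). Isotype replicate 9 was highest in Irs2 (15.2 RPKM, others 5.83 to 8.20) and in Pkm (441.6 RPKM, others 307.8 to 344.8). Antibody replicate 5 was lowest in Esrra (2.75 RPKM, others 6.39 to 7.83) and highest in Slc38a5 (84.5 RPKM, others 35.9 to 49.1), and antibody replicate 1 was highest in Etfdh (25.5 RPKM, others 18.2 to 19.4).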

How the results depend on the processing

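The log2 fold change of Pdk4 ranged from 1.44 to 1.72 over 19 alternative settings, a description of the contrast that chose the family. Pdk1, Pdk3, Pdp1 and Pdp2 kept negative folds in every setting that tested them, where 8938 of all 13450 tested genes were negative in the main setting. Their log2 fold changes ranged from -0.35 to -0.05 for Pdk1 and from -0.35 to -0.20 for Pdk3. The ranges were -0.18 to -0.04 for Pdp1 and -0.37 to -0.08 for Pdp2. Pdk4 relative to the alpha cell markers ranged from 0.17 to 0.40 over 15 settings. Over all genes, 53 were higher and 2 lower; the number higher was 23 when only genes averaging 5 RPKM were kept, 121 with array weights, and 31 to 50 with 1 library left out, lowest without isotype replicate 9 (31), antibody replicate 2 (32) and antibody replicate 3 (32). The number lower was 1 without a filter, 0 with the filter at 5 RPKM, 5 with quantile normalization, 1 without a variance trend, 61 with array weights, 5 without antibody replicate 5 and isotype replicate 10 together, and 0 (without antibody replicate 1) to 20 (without isotype replicate 6) with 1 library left out. The cause was not tested. The correlation of Pdk2 and Pdk3, in settings chosen after seeing the data, was -0.78 with either other pseudocount, -0.67 with median centring and -0.65 with quantile normalization (adjusted p from 0.161 to 0.207). Gcg lost its call without a filter on low values (adjusted p = 0.784). No paired analysis was possible because the groups share no replicate number. The lowest value of Pdp1 rests on about 87 reads and that of Pdk2 on about 148.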

Other observations

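Among the 10 tested genes within 1 Mb of Pdk4 on chromosome 6, 2 passed limma's threshold, where 0.409% of all tested genes did; this window was looked at after the values were seen. They are Sgce, epsilon-sarcoglycan (chromosome 6 from 4674350 to 4747204), and Peg10, a retrotransposon-derived gene (4747306 to 4760517), an adjacent pair known to be imprinted, with 722834 bases between Peg10 and Pdk4. Sgce was at 9.47, 11.1, 11.1, 9.49 and 11.6 RPKM in antibody libraries 1 to 5 and at 3.76, 5.09, 7.50, 4.63 and 4.35 RPKM in isotype libraries 6 to 10 (log2 fold change 1.02, SE 0.16, limma adjusted p = 0.0138). Peg10 was at 16.3, 10.3, 15.2, 24.9 and 19.2 RPKM and at 2.81, 7.26, 8.22, 5.56 and 5.64 RPKM (1.48, SE 0.27, limma adjusted p = 0.0428). Neither gene's groups overlapped.

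The tested genes between that pair and Pdk4 did not pass: Ppp1r9a had 0.06 (SE 0.11), Pon3 0.12 (SE 0.12), Pon2 0.10 (SE 0.11) and Asb4, the nearest at 50329 bases, -0.14 (SE 0.19). The call of Sgce was lost in 4 of 19 alternative settings, when antibody replicate 2 or 3 or isotype replicate 9 was left out, and when antibody replicate 5 and isotype replicate 10 both were (limma adjusted p up to 0.0799). That of Peg10 was lost in 9 of 19, among them without antibody replicate 1, 3, 4 or 5 or isotype replicate 7, 9 or 10 (limma adjusted p up to 0.172). Within 1 Mb of the other 5 members, 0 of the tested neighbours passed, where 0.409% of all tested genes did. The tested neighbours were 9 for Pdk1, 27 for Pdk2, 11 for Pdk3, 15 for Pdp1 and 27 for Pdp2.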
